A study of Mus musculus with 6 samples.

Results

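This report concerns the transcripts of the NF-kB transcription factor subunits, of the proteins that inhibit or adapt NF-kB signalling, and of Irak3, in mouse iNKT cells, the invariant natural killer T lymphocytes that recognise lipids on CD1d. Members were the listed genes Nfkb1, Nfkb2, Rel, Relb, Nfkbia, Nfkbie, Nfkbiz, Tnfaip3, Traf1 and Irak3, found as array rows that carry only that symbol in the platform annotation. Of the 10 listed genes, 9 had such a row, 1 row each, among 22180 genes with a tested row. Nfkb1 is not analysed here. The PLZF_ON group was made of iNKT cells from mice that express a form of the transcription factor PLZF kept constitutively acetylated, and the control group of iNKT cells from WT mice. Each group had 3 Affymetrix whole-transcript arrays, and the design names replicates 1 and 2 of each, 4 arrays in all, as those analysed. The labels give no age, sex, organ or stimulus, say nothing of how the allele was built, and do not tell separate animals from repeats of one. P-values therefore rest on the scatter of these samples alone, and that scatter may be technical.

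NF-kB dimers are held in the cytoplasm by IkB proteins until a receptor activates the IkB kinase complex, which marks the IkB for destruction and frees the dimer to enter the nucleus. Several NF-kB targets are themselves brakes of the pathway, among them IkB genes and Tnfaip3, so that their transcripts are commonly read as a record of recent NF-kB activity. Irak3, also called IRAK-M, belongs to the kinases that relay signals from interleukin-1, interleukin-18 and Toll-like receptors, and is known in mouse macrophages as an inhibitor of that relay. PLZF, encoded by Zbtb16, is the lineage factor of iNKT cells, and has been described in macrophages as a restraint on NF-kB target genes.

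The promoters of the members were set out first, since many genes of the pathway carry NF-kB sites of their own. RefSeq promoters (GRCm38.p6) were at hand for 7 of the 9 measured members, and the 130 bases before the outermost listed start of each are printed 5′ to 3′ in the direction of the gene. Capitals mark matches, on either strand, to the NF-kB consensus decamer, the kB motif, with overlapping matches joined.
Nfkb2, chr19:46304607-46304736, + strand: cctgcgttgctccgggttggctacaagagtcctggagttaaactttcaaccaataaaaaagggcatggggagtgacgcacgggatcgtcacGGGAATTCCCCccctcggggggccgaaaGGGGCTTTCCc
Rel, chr11:23770970-23771099, - strand: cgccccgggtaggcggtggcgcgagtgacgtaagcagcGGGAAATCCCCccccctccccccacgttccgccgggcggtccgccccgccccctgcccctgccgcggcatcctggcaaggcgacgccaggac
Nfkbia, chr12:55492648-55492777, - strand: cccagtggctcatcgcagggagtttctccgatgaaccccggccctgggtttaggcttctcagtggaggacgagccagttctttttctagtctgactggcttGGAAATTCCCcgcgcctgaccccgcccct
Nfkbie, chr17:45555570-45555699, + strand: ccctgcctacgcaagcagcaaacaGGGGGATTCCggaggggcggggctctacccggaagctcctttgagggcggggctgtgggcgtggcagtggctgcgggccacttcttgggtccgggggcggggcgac
Tnfaip3, chr10:19015411-19015540, - strand: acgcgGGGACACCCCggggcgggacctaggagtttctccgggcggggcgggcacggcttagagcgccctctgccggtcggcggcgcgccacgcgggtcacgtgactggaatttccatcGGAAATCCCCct
Traf1, chr2:34961773-34961902, - strand: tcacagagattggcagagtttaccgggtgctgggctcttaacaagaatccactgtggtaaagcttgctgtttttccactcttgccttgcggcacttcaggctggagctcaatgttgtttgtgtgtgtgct
Irak3, chr10:120202131-120202260, - strand: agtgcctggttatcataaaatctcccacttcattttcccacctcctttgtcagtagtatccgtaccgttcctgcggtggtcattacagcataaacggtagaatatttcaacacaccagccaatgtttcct

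Over the whole listed window of each promoter, 250 bases before to 50 after the start, Nfkb2, Rel, Nfkbia, Nfkbie and Tnfaip3 held the motif, 5 of 7 members, against 5.14% of the 27025 genes in the table. Nfkb2 held 2 separate sites before its outermost listed start, beginning 39 and 11 bases before it, and windows of its other 2 listed starts held matches too. The listed starts of Nfkb2 lie inside its annotated gene, which begins at 46300994. Part of the Traf1 stretch likewise lies inside its annotated gene, whose 5′ end is at 34961812. The first site of Tnfaip3 began 125 bases and the second 12 bases before the start, that of Nfkbia 29 bases, that of Rel 92 bases and that of Nfkbie 106 bases. Traf1 and both listed starts of Irak3 held no match, which says only that these letters are not in this window.

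The deposited log2 values had medians between 4.88 and 5.01 on the 6 arrays. Their SD across rows was 1.79 on PLZF_ON replicate 3, against 1.97 to 2.01 on the other arrays, so its values spanned a narrower range. The measured T cell markers, summed on the linear scale, came to 6540 on it, against 9140 to 10500 on the others. The part of this narrower range in the replicate 3 values of single genes was not tested. PLZF_ON replicate 3 stood apart, with correlations to the other arrays of 0.895 to 0.898 across rows, against 0.957 to 0.973 among the others. It also carried markers of other cells. The CD8 T cell genes Cd8a and Cd8b1 were at 6.55 and 7.77 on it, against at most 4.73 and 5.89 elsewhere. Of 4 measured immature thymocyte markers, Cd24a was at 9.58 and Dntt at 7.19 on that array, against at most 5.27 and 4.10 on the other 5. Of 6 measured neutrophil markers, S100a8 was at 7.29 there and at most 3.09 elsewhere. The list was not uniform, since Ly6g was at 4.47 there, against 4.67 on WT replicate 3. Cxcr2 was at 5.50 there, against 6.04 on PLZF_ON replicate 2. The 6 measured T cell markers and the 6 iNKT markers, Zbtb16 among them, were above 5.08 on every array. This does not establish the labelled identity, since Cd209a and Krt8, from lists of other cells, were above 5.08 on every array as well. Of 1390 receptor genes of smell and pheromone sensing, 95% had a 4-array mean below that value, which is used here as a mark of dim signal since the values carry no detection flag. Zbtb16 was at 10.48, 10.68 and 9.54 on PLZF_ON replicates 1 to 3, against 9.96, 10.18 and 9.82 in WT. Klrb1c, also an iNKT marker, was at 8.63, 7.25 and 7.78 in PLZF_ON, against 10.24, 10.02 and 9.30 in WT. Natural killer cell markers differed inside the 4 arrays too. The 3 measured ones, summed on the linear scale, came to 427, 83.9 and 437 on PLZF_ON replicates 1 to 3. In WT they came to 186, 234 and 365. Because PLZF_ON replicate 3 stands apart, results are given over the 4 arrays first and over all 6 beside them. In bulk samples of this kind, fewer cells of a type and less RNA per cell cannot be told apart.

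**Figure D1:**
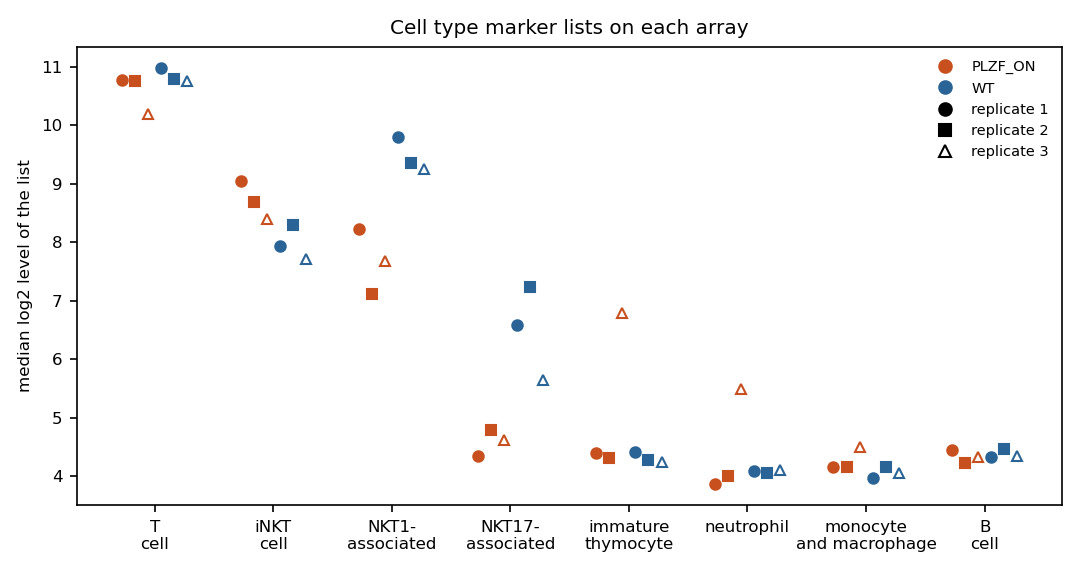
Median log2 level of 8 marker lists on each array, with PLZF_ON in orange left of WT in blue, and replicate 3 as an open triangle. PLZF_ON replicate 3 lies at 6.79 for immature thymocyte and 5.49 for neutrophil markers, above the other 5 arrays. It is also the highest for monocyte and macrophage markers, at 4.50, against 3.96 to 4.16 on the other 5.

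Irak3 was the member that rose in PLZF_ON. Its log2 level was 7.55, 8.14 and 5.45 on PLZF_ON replicates 1 to 3, against 4.84, 5.10 and 4.71 on WT replicates 1 to 3. All PLZF_ON arrays lay above all WT arrays, with PLZF_ON replicate 3 only a little above WT replicate 2. Over the 4 arrays the level averaged 7.85 ± 0.42 in PLZF_ON and 4.97 ± 0.18 in WT (SD, n = 2 each), a rise of 2.88 on the log2 scale, or 7.35-fold (SE 0.23, limma adjusted p = 0.0206). The WT mean lies below the dim-signal mark, and taken against that mark the fold was 6.84. Over all 6 arrays the difference was 2.16 (SE 0.61, limma adjusted p = 0.482), which did not pass. Within replicate numbers, PLZF_ON minus WT was 2.71, 3.04 and 0.74. Without PLZF_ON replicate 2 the difference was 2.58 and the limma adjusted p = 0.124, and under that setting no row of the table passed. The call was also lost when all deposited rows, named or not, were tested together (limma adjusted p = 0.288).

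Irak3 is abundant in monocytes and macrophages, so their markers were set beside it. The 10 measured markers, summed on the linear scale, came to 261, 287 and 322 on PLZF_ON replicates 1 to 3 and to 275, 269 and 267 on WT replicates 1 to 3. Cd68 was the largest part of these sums on every array but PLZF_ON replicate 3. It was at 6.45, 6.85 and 5.32 in PLZF_ON, against 6.95, 6.70 and 6.64 in WT. Most other markers of the list were dim, so near-equal sums do not show equal content of such cells. The macrophage receptor Csf1r was at 4.45 and 4.61 on PLZF_ON replicates 1 and 2, and at 4.71 and 4.61 on the WT ones, all below the dim-signal mark. The lysozyme gene Lyz2 was at 4.19 and 4.48 on PLZF_ON replicates 1 and 2, against 3.96 and 4.21 in WT. Lyz2 was highest, at 6.58, on PLZF_ON replicate 3. On replicates 1 and 2, Itgam, an integrin chain shared with natural killer cells, was the marker in this list with an unadjusted limma p under 0.05, at 5.61 and 5.21 in PLZF_ON and 4.83 and 5.01 in WT. The part of monocytes and macrophages in the Irak3 values was not tested.

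The 5 genes whose pattern over the 6 arrays, each centred on its own mean, was closest to that of Irak3 were Slc15a1, Slc12a2, Tnfsf8, Spa17 and Exph5, with root mean square differences of 0.38, 0.38, 0.46, 0.48 and 0.50. Slc15a1, a peptide transporter, was at 6.52, 7.02 and 4.60 on the PLZF_ON arrays and at 4.41, 4.16 and 4.67 in WT. Slc12a2, a sodium-potassium-chloride cotransporter, was at 8.49, 8.70 and 6.49 on PLZF_ON replicates 1 to 3, against 5.79, 6.55 and 6.46 in WT. Tnfsf8, the CD30 ligand, was at 7.32, 7.66 and 6.30 on the PLZF_ON arrays, against 4.45, 5.24 and 4.40 in WT. PLZF_ON replicate 3 overlapped WT for Slc15a1, Slc12a2 and Spa17, and lay above WT for Tnfsf8 and Exph5, as it did for Irak3. The likeness is over only 6 arrays of the same 2 groups and was chosen as the closest among the 22180 genes. Predicted, microRNA, small nucleolar, olfactory and pheromone receptor genes, and those with symbols ending in Rik, were left out.

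**Figure D2:**
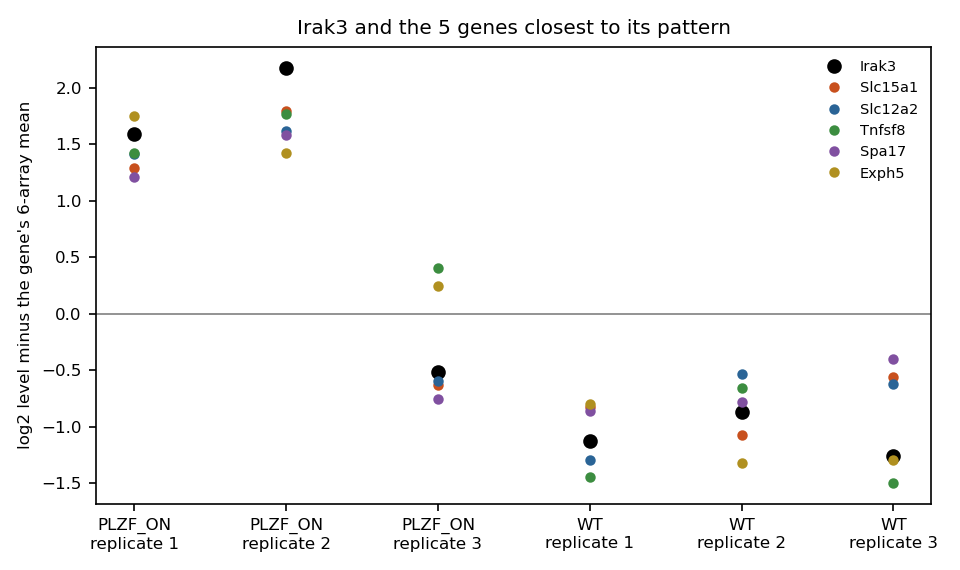
Log2 level minus the gene's 6-array mean, for Irak3 in black and its 5 closest genes in colour, on PLZF_ON replicates 1 to 3 at left and WT replicates 1 to 3 at right. All 6 genes are high on PLZF_ON replicates 1 and 2, and on PLZF_ON replicate 3 Irak3, at a level of 5.45, lies next to Slc15a1 and Slc12a2.

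Among the subunits, Nfkb2 encodes the precursor of the DNA-binding partner of RelB in the alternative pathway, and is itself induced by NF-kB. It was at 6.68, 6.77 and 6.87 on PLZF_ON replicates 1 to 3, against 7.27, 7.57 and 7.64 in WT. All PLZF_ON arrays, replicate 3 included, lay below all WT arrays. The log2 difference was -0.70 over 4 arrays (SE 0.16, limma adjusted p = 0.206) and -0.72 over 6 (SE 0.16, limma adjusted p = 0.310). Within replicate numbers it was -0.60, -0.80 and -0.77, and it did not pass in either fit. Over 6 arrays it passed with array weights, which set PLZF_ON replicate 3 at 0.15 (limma adjusted p = 0.0477).

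Rel, whose c-Rel protein serves antigen receptor responses of lymphocytes, was at 8.32, 7.74 and 7.75 on the PLZF_ON arrays and at 8.29, 8.39 and 8.08 in WT. The groups overlapped through PLZF_ON replicate 1, and the log2 difference was -0.32 over 4 arrays (SE 0.21, limma adjusted p = 0.758). It was -0.03 without PLZF_ON replicate 2 and -0.61 without PLZF_ON replicate 1 (limma adjusted p = 0.396). Over 6 arrays it was -0.32, and -0.51 without PLZF_ON replicate 1. Relb, the transactivating partner of the Nfkb2 product, was at 6.30, 5.93 and 5.56 in PLZF_ON against 5.85, 6.20 and 6.0 in WT. Its difference was 0.09 over 4 arrays (SE 0.19, limma adjusted p = 0.949) and -0.09 over 6, so its sign was not fixed. Rel and Relb were each other's closest member in pattern (root mean square difference 0.19), and both were highest in PLZF_ON on replicate 1. Rela, a subunit outside the list and the main transactivator of the classical pathway, was at 8.63 and 8.55 on PLZF_ON replicates 1 and 2, against 8.92 and 8.58 in WT, with a log2 difference of -0.16 (SE 0.16, limma adjusted p = 0.865). PLZF_ON replicate 3 had Rela at 7.09, against 8.88 on WT replicate 3.

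**Figure D3:**
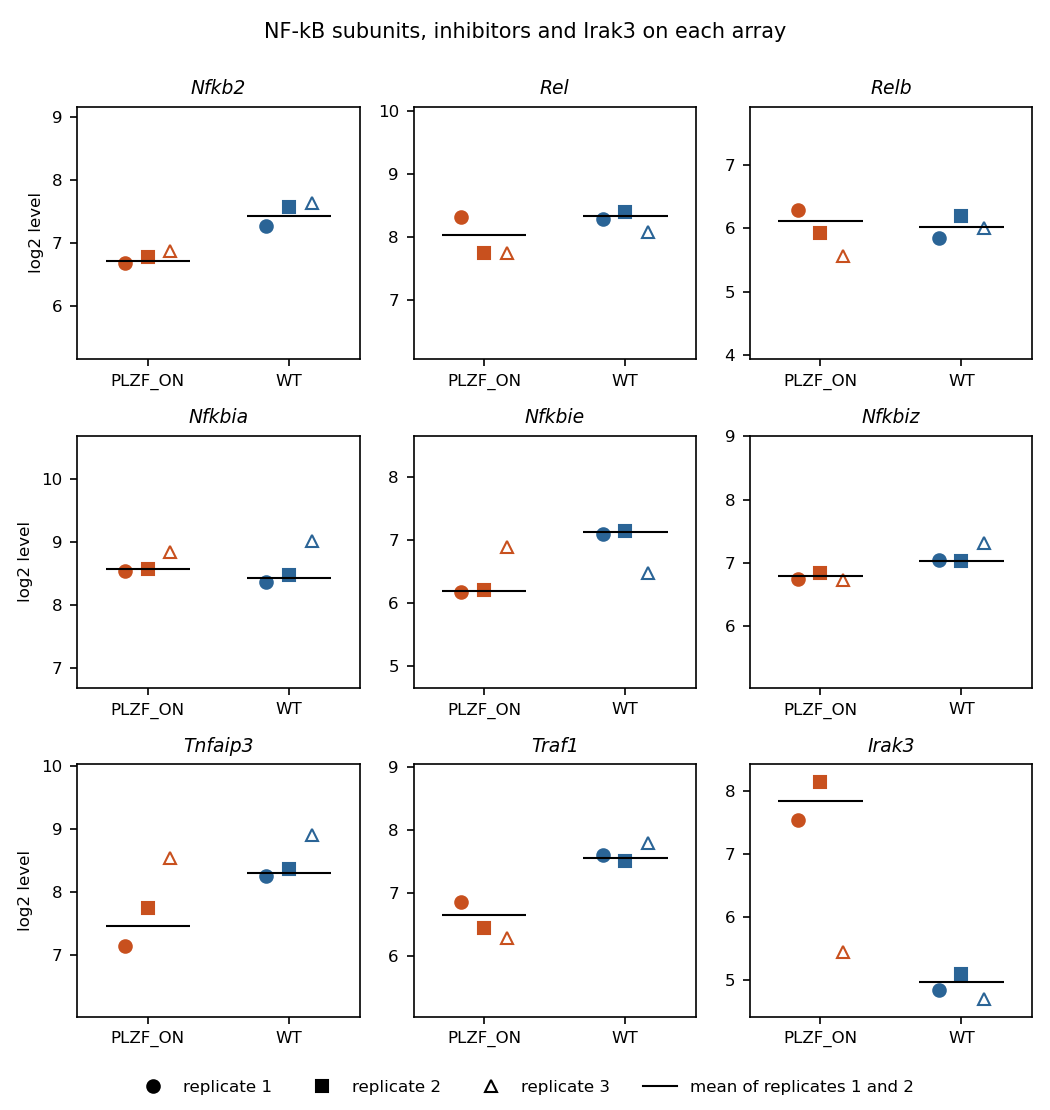
Log2 level of the 9 measured members on each array, PLZF_ON left of WT, each panel spanning 4 log2 units, with lines at the mean of replicates 1 and 2 and replicate 3 as an open triangle. Nfkb2, Nfkbiz and Traf1 lie lower on all PLZF_ON arrays, Irak3 higher, and Nfkbie crosses over in replicate 3.

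The IkB genes differed among themselves. Nfkbia, the IkB-alpha that NF-kB induces most quickly, was at 8.55, 8.58 and 8.85 on PLZF_ON replicates 1 to 3, against 8.37, 8.48 and 9.01 in WT. Its log2 difference was 0.14 over 4 arrays (SE 0.13, limma adjusted p = 0.855) and 0.04 over 6 (SE 0.21, limma adjusted p = 0.985). PLZF_ON replicates 1 and 2 lay just above the WT ones, while over all 6 arrays the groups overlapped. Nfkbie, the IkB-epsilon that mainly retains c-Rel and RelA dimers, was at 6.17 and 6.20 on PLZF_ON replicates 1 and 2, against 7.09 and 7.14 on the WT ones. These are tight and separate pairs, with a log2 difference of -0.93, or 1.91-fold (SE 0.13, limma adjusted p = 0.0759), which missed the threshold. On replicate 3 the order was the opposite, with 6.89 in PLZF_ON and 6.48 in WT, and over 6 arrays the difference was -0.48 (SE 0.27, limma adjusted p = 0.941). Nfkbiz, the nuclear IkB-zeta that acts as a cofactor for secondary response genes, was at 6.74, 6.84 and 6.72 on the PLZF_ON arrays, against 7.04, 7.02 and 7.31 in WT. The 2 groups did not overlap on any array, yet the difference was small, -0.23 over 4 arrays (SE 0.13, limma adjusted p = 0.689) and -0.35 over 6 (SE 0.15, limma adjusted p = 0.867).

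Tnfaip3 encodes A20, the ubiquitin-editing enzyme that ends signalling to the IkB kinases. It was at 7.15, 7.76 and 8.54 on PLZF_ON replicates 1 to 3, against 8.26, 8.37 and 8.91 in WT. PLZF_ON had the lower value within each replicate number, with differences of -1.11, -0.60 and -0.38, while replicate 3 was the highest array within each group. The log2 difference was -0.85 over 4 arrays (SE 0.22, limma adjusted p = 0.269) and -0.70 over 6 (SE 0.35, limma adjusted p = 0.931). Over 4 arrays it was -0.55 without PLZF_ON replicate 1. Over 6 it was -0.36 without PLZF_ON replicate 1 and -1.05 without PLZF_ON replicate 3. Nfkb2, Nfkbia and Tnfaip3 were highest on replicate 3 in both groups, 3 of 9 members, against 24.0% of all tested rows.

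Traf1 encodes an adaptor that binds TNF receptor family members and is a well-known NF-kB target of activated T cells. It was at 6.85, 6.44 and 6.28 on PLZF_ON replicates 1 to 3, against 7.60, 7.50 and 7.79 in WT. The groups were separate on all arrays, and within replicate numbers the difference was -0.75, -1.06 and -1.51. Over 4 arrays it was -0.90, or 1.87-fold (SE 0.17, limma adjusted p = 0.157), and over 6 arrays -1.11, or 2.15-fold (SE 0.19, limma adjusted p = 0.140). It did not pass in either fit, and passed over 6 arrays with array weights (limma adjusted p = 0.026).

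**Figure D4:**
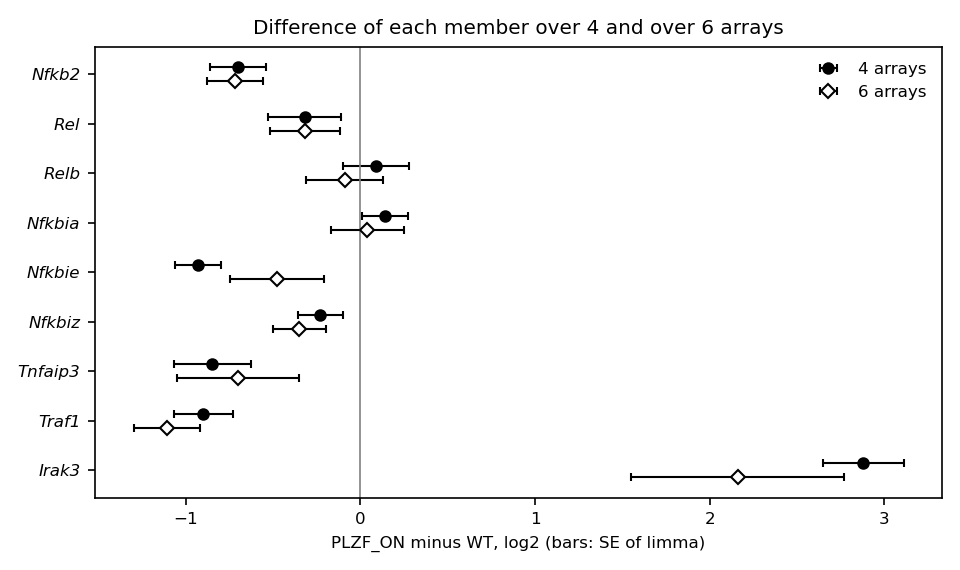
PLZF_ON minus WT on the log2 scale for each member, over 4 arrays (filled circles) and 6 arrays (open diamonds), with bars of 1 limma standard error. Irak3 is at 2.88 and 2.16, and Nfkbie moves from -0.93 over 4 arrays to -0.48 over 6, while Nfkb2 stays at -0.70 and -0.72.

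Counted together, 1 of the 9 measured members (Irak3) passed a limma adjusted p of 0.05 over 4 arrays, where 0.17% of all 23521 rows did, and 0 passed over 6 arrays, where 0.0935% did. An unadjusted limma p under 0.05 was reached by Irak3 as higher and by 4 members as lower over 4 arrays, namely Nfkb2, Nfkbie, Tnfaip3 and Traf1. Among all rows 9.41% were under it, 4.88% as higher and 4.53% as lower. Over 6 arrays the members under it were Irak3 as higher and Nfkb2 and Traf1 as lower, against 5.77% of rows in all, 2.45% as higher and 3.32% as lower. The groups did not overlap over 4 arrays for 7 of 9 members, against 38.2% of rows. PLZF_ON was below WT for 5 of these, against 19.3% of rows, and above it for Nfkbia and Irak3, against 18.9%. Over 6 arrays the groups did not overlap for 4 of 9 members, against 11.8% of rows. PLZF_ON was below WT for Nfkb2, Nfkbiz and Traf1, against 6.22% of rows, and above it for Irak3, against 5.55%. The median log2 difference of the 9 was -0.32 over 4 arrays and -0.35 over 6, beside 0.00 and 0.03 over all rows. These members had been listed with earlier results of these data known.

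The other genes of the pathway were taken from fixed lists of 112 genes, of which 104 were measured. One of them, Il1r1, passed over 4 arrays, where 0.17% of all rows did, and it fell. For the list counts below, 9.41% of all rows were under an unadjusted limma p of 0.05 over 4 arrays. Of all rows, 4.88% were so as higher and 4.53% as lower. The remaining subunits and IkB proteins had 0 of 5 past the adjusted threshold by limma, and 1 of 5 under an unadjusted p of 0.05. That was Nfkbid, the nuclear IkB-NS, with a log2 difference of -0.61 (SE 0.20, limma adjusted p = 0.420). Nkrf, a repressor of NF-kB targets, had a difference of 0.58 (SE 0.29, limma adjusted p = 0.638) over 4 arrays and 0.10 over 6, with -0.85 within replicate 3. In the IkB kinase list, 0 of 11 genes were under even an unadjusted limma p of 0.05, and the differences ran from -0.26 to 0.35. The kinase adaptor Tank and the IKK-related kinase Ikbke had the smallest p there, with differences of 0.35 and 0.28 over 4 arrays and 0.32 and -0.03 over 6.

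TRAF, IAP and death domain adaptors gave 0 of 8 under an unadjusted limma p of 0.05, with differences between -0.10 and 0.25. In the antigen receptor branch 0 of 5 passed by limma, and 1 was under an unadjusted p of 0.05, the costimulatory receptor Cd28 (difference 0.64, SE 0.14, limma adjusted p = 0.192). Over 6 arrays the difference of Cd28 was 0.35, with -0.24 within replicate 3. Of 15 genes for ubiquitin editing and partners of A20, 0 passed by limma and 1 was under an unadjusted p of 0.05. Tnip2, a partner of A20, had a difference of 0.80 (SE 0.13, limma adjusted p = 0.113). Tnip2 was at 6.75 and 6.67 on PLZF_ON replicates 1 and 2, against 5.88 and 5.94 in WT, but at 5.03 on PLZF_ON replicate 3, so that over 6 arrays the difference was 0.25. In the TNF receptor family 0 of 13 passed by limma, and 2 were lower and 1 higher under an unadjusted p of 0.05. The lower ones were Tnfrsf25, the receptor DR3, at -0.52 (limma adjusted p = 0.286) and Tnfrsf1a at -0.59 (limma adjusted p = 0.493). Tnfrsf4, or OX40, was the higher one, at 0.39 (limma adjusted p = 0.471). Over 6 arrays Tnfrsf25 was at -0.28, with 0.21 within replicate 3, Tnfrsf1a at -0.40 and Tnfrsf4 at 0.40.

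The interleukin-1, interleukin-18 and Toll-like receptor branch, in which Irak3 acts, held the one fall. Il1r1, the interleukin-1 receptor, was at 4.34, 4.79 and 4.46 on PLZF_ON replicates 1 to 3, against 7.79, 8.11 and 6.65 in WT, and fell by 3.38 on the log2 scale over 4 arrays (SE 0.20, limma adjusted p = 0.0123). Over 6 arrays it fell by 2.99 (SE 0.36, limma adjusted p = 0.0459). The PLZF_ON values lay below the dim-signal mark, and taken against it the fold over 4 arrays was 7.33 in place of 10.4. Under an unadjusted limma p of 0.05 over 4 arrays, 8 of the 20 measured genes of this branch were lower and 1 was higher, against 4.53% and 4.88% of rows. The median difference of the branch was -0.07, with differences from -3.38 to 0.70. Without PLZF_ON replicate 2 Il1r1 too was among the rows that did not pass.

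Other receptors and adaptors of the branch had values that missed the threshold. Il18rap, a chain of the interleukin-18 receptor, was at 7.86, 6.61 and 7.18 on the PLZF_ON arrays, against 9.02, 8.83 and 8.55 in WT, a difference of -1.69 over 4 arrays (SE 0.38, limma adjusted p = 0.216). Tlr7, which senses RNA in endosomes, was at 4.36, 4.40 and 5.10 in PLZF_ON against 6.34, 5.76 and 6.97 in WT (difference -1.67, SE 0.21, limma adjusted p = 0.0733). Its PLZF_ON mean over 4 arrays, 4.38, lay below the dim-signal mark, and taken against that mark the fold was 1.96 in place of 3.18. Tirap, an adaptor of Toll-like receptors, had a difference of -0.60 (SE 0.15, limma adjusted p = 0.260). For Il1r1, Il18rap, Tlr7 and Tirap, named as those of the smallest p in the branch, all PLZF_ON arrays lay below all WT arrays, replicate 3 included. The same held for 8 of the 20 measured genes of the branch, these among them, and for 6.22% of all rows. Of the relatives of Irak3, chosen for naming after their values were seen, Irak2 had a difference of -0.42 (SE 0.13, limma adjusted p = 0.386) and Irak1 one of -0.09 (SE 0.13, limma adjusted p = 0.915).

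The NF-kB target list, which shares no gene with the members, had 27 measured genes, and 0 passed by limma over 4 arrays. Under an unadjusted limma p of 0.05, 5 were lower and 0 higher, against 4.53% and 4.88% of rows. Differences were below 0 for 21 of 27, against 50.7% of rows, and the median was -0.21 over 4 arrays and over 6 arrays alike. Among those below 0, Vcam1, Il6, Csf2, Cxcl10, Ccl20, Il1b and Plau averaged below the dim-signal mark in both groups over 4 arrays. The same held for Il2 and Ptgs2 among those above 0. Differences of such dim genes are not read as changes. Ltb, lymphotoxin beta, was at 8.97, 8.36 and 8.70 on PLZF_ON replicates 1 to 3, against 10.15, 9.91 and 9.26 in WT (difference -1.37, SE 0.23, limma adjusted p = 0.115). All PLZF_ON arrays lay below all WT arrays. Junb, an AP-1 subunit, had a difference of -0.47 (limma adjusted p = 0.315). The chemokine Cxcl10 averaged 4.28 in PLZF_ON and 4.96 in WT over 4 arrays, both below the dim-signal mark, so that no fold is given. Bcl2a1a, a survival gene with near-identical copies whose signal the array may not tell apart, had one of -0.69 (limma adjusted p = 0.372). The kB motif stood in the promoters of 9 of the 23 targets with one in the table, against 5.14% of all genes there.

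**Figure D5:**
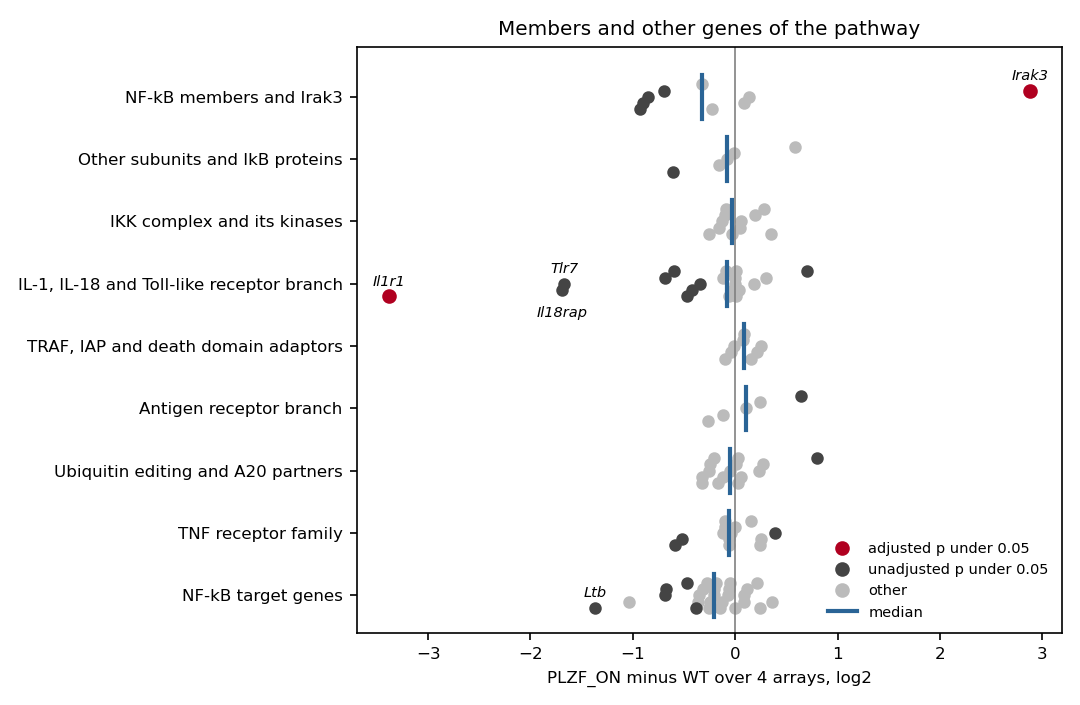
PLZF_ON minus WT over 4 arrays on the log2 scale, 1 point a gene, for the members and the 8 other lists, with the median of each as a bar and points past a limma adjusted p of 0.05 in red. Irak3 at 2.88 and Il1r1 at -3.38 are the points that passed, and the other members and targets lie mostly below 0.

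Subset markers differed between the same groups. The 8 measured NKT1-associated markers, those of the interferon-gamma-producing subset, summed on the linear scale to 3360, 2000 and 2300 on PLZF_ON replicates 1 to 3, against 7970, 6420 and 7120 in WT. All 8 were lower on both PLZF_ON arrays than on both WT arrays of replicates 1 and 2, against 19.3% of all rows. The 7 NKT17-associated markers, Il1r1 among them, summed to 156, 180 and 178 in PLZF_ON against 659, 904 and 445 in WT. The 7 NKT2-associated markers summed to 5280, 5620 and 2670 in PLZF_ON against 4200, 4560 and 3610 in WT, so that replicate 3 ran the other way. Their median difference was 0.45 over 4 arrays and 0.22 over 6. The 7 epithelial, endothelial and liver markers summed to 780, 935 and 664 in PLZF_ON against 462, 569 and 427 in WT, most of it Pecam1, which T cells also carry. The part of these markers in the values of Nfkb2, Nfkbie, Tnfaip3, Traf1, Irak3 and the interleukin receptors was not tested.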

How the data were processed

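Gene expression of iNKT cells was measured on 6 Affymetrix whole-transcript arrays, 3 PLZF_ON and 3 WT. The deposited table holds log2 values, and the submitters' processing notes name RMA, with no version. That method corrects background, equalises the distributions and compresses changes of dim genes. The authors' build and annotation were not given in the sources used here. Values were used as deposited. Of 41345 rows, the 23521 with exactly 1 gene symbol in the platform annotation were tested, 1814 with several symbols were left out, and 16010 are unnamed here. A gene with several rows was represented by that with the highest mean over the 6 arrays.

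PLZF_ON was compared with WT with R 4.3.3 and limma 3.58.1 (functions lmFit and eBayes, no trend, genotype as the only term, two-sided), over replicates 1 and 2 and over all 6 arrays, with Benjamini-Hochberg adjustment over all tested rows at 0.05. Residual degrees of freedom were 2 and 4, so the number of arrays limits the precision. The fit was tested on simulated data with independent normal errors. These held no outlying array and no shared effect of the replicate number, so that test does not bear on either. Standard errors are limma's moderated ones. All members were named, with up to 4 genes of the smallest p in each other list, any list gene that passed, and the 5 closest patterns to Irak3. Other names (Irak1, Irak2, Tlr6, the further dim target genes and markers) were picked with their values already seen. The members and lists were chosen with earlier results of these data known. Promoters are RefSeq's, GRCm38.p6. Alternatives were the replicate block, leaving out each array, brighter rows, a variance trend, 2 other normalizations, all deposited rows, averaging the rows of a gene, and array weights. Plots used matplotlib 3.10.9.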

Additional observations from a re-analysis of the deposited data

How the results depend on the processing

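Of 117 member values under alternatives over 4 arrays, 114 kept their direction, and of 126 over 6 arrays, 120 did. The exceptions were Relb, at -0.09 with all 6 arrays in place of 4, from -0.09 to 0.27 leaving out 1 of 4 arrays, 0.07 with array weights over 6, and from -0.27 to 0.10 leaving out 1 of 6, and Nfkbia, from -0.09 to 0.23 leaving out 1 of 6. Over 4 arrays 40 rows passed by limma, 101 with the replicate block, 22 with all 6 arrays, 0 with all deposited rows (3042 under an unadjusted p of 0.05), and 0 to 106 leaving out 1 array, the 0 without PLZF_ON replicate 2 (1803 unadjusted) and the 106 without WT replicate 2. Over 6 arrays 22 rows passed, 5 with median centring, 0 with all deposited rows (2100 unadjusted), 259 with array weights, and 0 to 107 leaving out 1 array, the 107 without PLZF_ON replicate 3. The 0 came without PLZF_ON replicate 2, WT replicate 1 or WT replicate 2 (1531, 852 and 960 unadjusted), while 6 passed without PLZF_ON replicate 1 and 1 without WT replicate 3. The member count over 4 arrays was 1, with 0 under all 6 arrays and under all deposited rows, and 0 to 1 leaving out 1 array. Over 6 arrays it was 0, with 3 under array weights (Irak3, Nfkb2 and Traf1) and 0 to 1 leaving out 1 array, the 1 being Irak3 without PLZF_ON replicate 3. The cause was not tested for these changes. The replicate block changed no member's call, but over 6 arrays it took the unadjusted limma p of Tnfaip3 from 0.083 to 0.0107. Deviations from group means of same-numbered arrays correlated at 0.09, 0.25 and 0.24 over 6 arrays. Among differently numbered arrays, PLZF_ON replicate 1 and WT replicate 2 were at 0.12 and the rest between -0.235 and -0.030. The labels do not call the numbers pairs, so the main fit has no replicate term. A shared effect of the replicate number is not excluded.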

Other observations

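Within the interleukin-1, interleukin-18 and Toll-like receptor branch, Tlr6 was the gene with a higher value at an unadjusted limma p under 0.05, at 6.77 and 6.69 on PLZF_ON replicates 1 and 2 against 5.80 and 6.28 in WT (difference 0.70 over 4 arrays, limma adjusted p = 0.302). PLZF_ON replicate 3 had 4.68 and WT replicate 3 had 5.54. Among the members Irak3 was the farthest in pattern from each of the other 8, with root mean square differences between 1.31 (Relb) and 1.86 (Tnfaip3), while Nfkb2 was the closest member to Nfkbie, Nfkbiz, Tnfaip3 and Traf1, at 0.22 to 0.37.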
